A study of Rattus norvegicus with 4 samples.

Results

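HCN channels carry the hyperpolarization-activated current of neurons and pacemaker cells, and 3 of their genes, Hcn2, Hcn3 and Hcn4, were followed here in spatial transcriptome data of the rat trigeminal nerve. The 3 genes were taken by symbol from the 32623 genes of the deposited matrix, and each symbol matched 1 row (ENSRNOG00000008831, ENSRNOG00000020444 and ENSRNOG00000009450). The study prepared a trigeminal neuralgia (TN) model in adult male Sprague-Dawley rats by unilateral compression of the trigeminal root. Tissue holding the root, the semilunar ganglion and the proximal branches was cut at 10 μm and placed on 4 Visium capture areas, where RNA is captured at a grid of barcoded spots. TN1, TN2 and TN3 each held tissue of 1 animal, and the healthy control area (HC) held tissue of 2 animals that the barcodes do not tell apart. The sources used here describe the controls once as sham-operated and once as the healthy side of animals of the model, so that both conditions may come from the same rats. HC is 1 sample, so condition and capture area cannot be told apart.

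HCN subunits assemble as tetramers around a cation pore that opens when the membrane becomes more negative, and the inward current that follows brings the cell back toward threshold. Binding of cAMP to the intracellular domain makes opening easier. Hcn2 encodes a subunit with faster gating and a strong response to cAMP that is known from nociceptors and from many central neurons, Hcn4 a slow and strongly cAMP-sensitive subunit best known from the sinoatrial node and the thalamus, and Hcn3 a slow subunit with little response to cAMP.

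The 4 areas held 6773 spots covered by tissue, between 1256 in TN2 and 2013 in HC. Summed over spots, they gave between 23546025 unique molecular identifiers (UMIs, counts of captured RNA molecules) in TN1 and 41335930 in HC. The median spot held 9487 UMIs in TN1, 14480 in TN3, 14616 in HC and 30808 in TN2. Spots were grouped into 10 clusters without using the HCN genes, and clusters were named by lists of marker genes as regions. A spot covers several cells, so a region is not a cell type. The ganglion region, led by sensory neuron genes, comprised 199, 367, 164 and 659 spots in TN1, TN2, TN3 and HC. The central neuron region, called brainstem here, was found in TN1 (425 spots) and TN2 (129 spots) only. The central myelin region lay in all areas (126 to 434 spots), whereas the peripheral myelin region, the nerve proper, had 409 spots in TN1 and 393 in TN3 but 13 in TN2 and 18 in HC. Since the clusters were named from marker lists, the sums of those lists restate the naming. The 11 sensory neuron genes summed to between 7060 and 8200 UMIs per 1000000 UMIs (CPM) in the ganglion region of the 4 areas and to 1120 and 790 CPM in the central neuron region of TN1 and TN2. The 6 central neuron markers summed to 539 and 486 CPM in the brainstem of TN1 and TN2 and to 97.5 to 142 CPM in the ganglion region. All 6 were detected in both brainstem pieces, but also in the ganglion region of TN1 and TN2. The 7 general neuron genes, which named no cluster, summed to 13700 to 15200 CPM in the ganglion, 6620 and 6670 in the central neuron region and 1730 to 3910 in the central myelin region. Names rest on levels centred over clusters, and by summed CPM some regions held more of another list than of their own. The blood and bone region had 5410, 1330, 3090 and 4020 CPM of its own list in TN1, TN2, TN3 and HC. Its peripheral myelin genes summed to 13100, 6190, 15100 and 9840 CPM, and its connective tissue genes in TN2 to 8840. The central myelin region had 2680 to 3130 CPM of its own list and 4670 to 8630 of the astrocyte list.

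Hcn3 was the most frequently captured of the 3 genes, with 2664 UMIs in 1733 spots (25.6% of all spots). Hcn4 followed with 1223 UMIs in 873 spots (12.9%). Hcn2 had 214 UMIs in 204 spots (3.01%). These totals count captured 3′ ends and do not rank the channel proteins. The 3 genes were distributed differently over the tissue. The ganglion region held 42.6% of all UMIs of the 4 areas, but 62.6% of the Hcn3 UMIs, 53.9% of the Hcn4 UMIs and 32.7% of the Hcn2 UMIs. The central neuron region held 6.45% of all UMIs, 22.8% of those of Hcn4 and 22.4% of those of Hcn2. The central myelin region, with 6.64% of all UMIs, held 19.6% of those of Hcn2, 2.4% of those of Hcn3 and 1.47% of those of Hcn4. In the peripheral myelin region the corresponding shares were 1.87% for Hcn2, 3.15% for Hcn3 and 1.8% for Hcn4, against 6.78% of all UMIs.

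**Figure D1:**
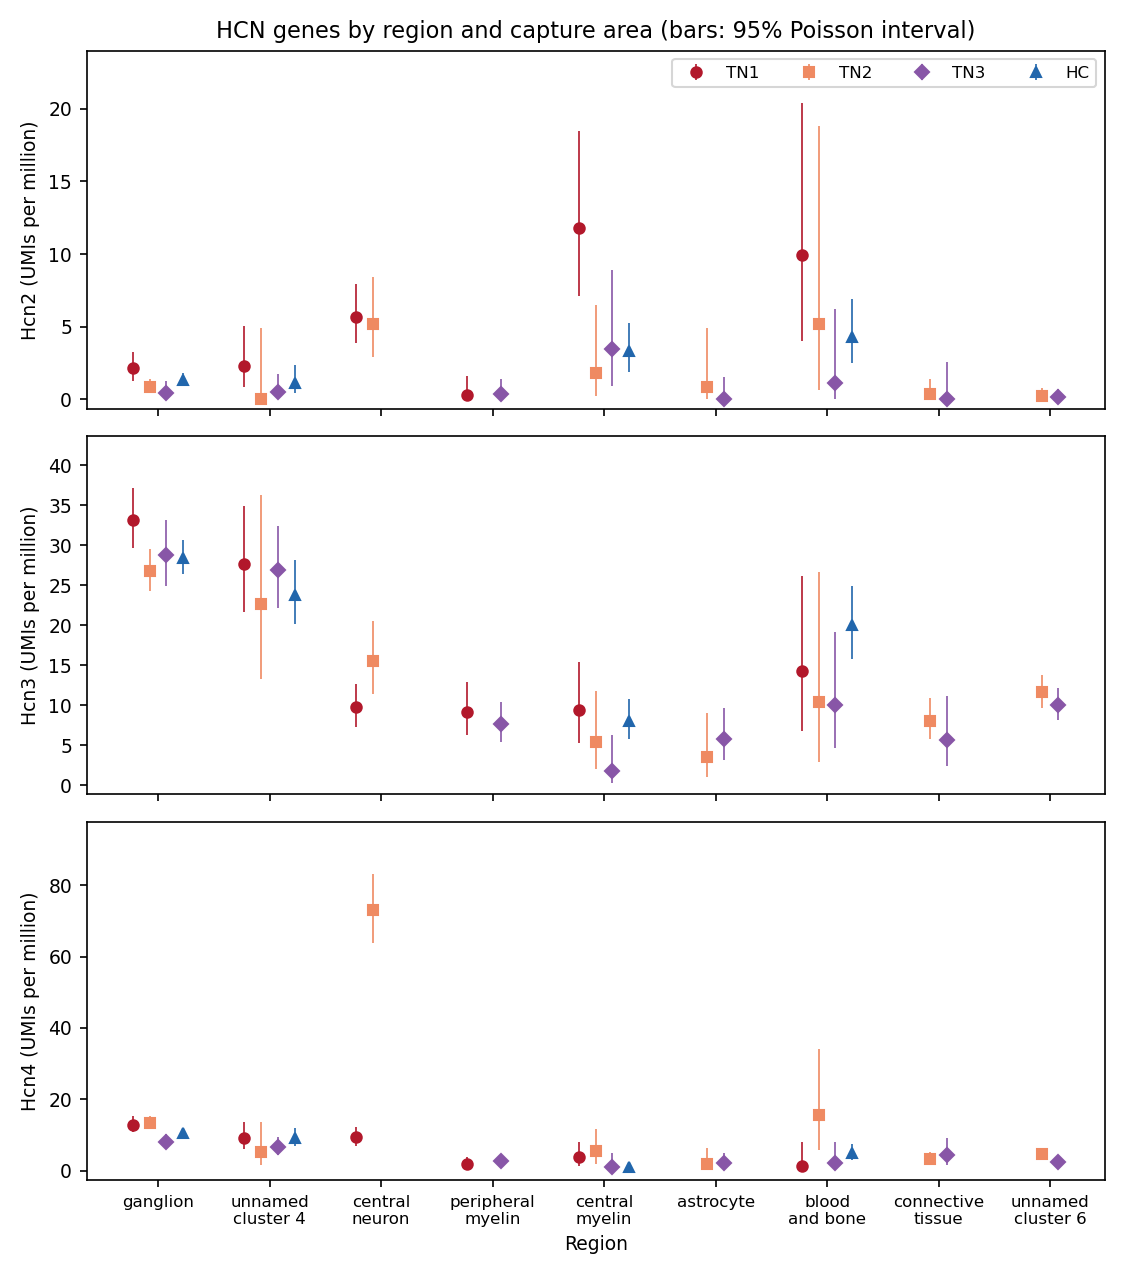
Level (CPM) of Hcn2 (top), Hcn3 (middle) and Hcn4 (bottom) in each region of each capture area with at least 20 spots of that region; bars are 95% Poisson intervals of the count. Hcn3 is highest in the ganglion region of every area (26.8 to 33.2 CPM), Hcn4 is highest in the central neuron region of TN2 (73 CPM), and Hcn2 lies between 0.438 and 2.13 CPM in the ganglion region.

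By CPM, Hcn3 was highest in the ganglion region of every area. Its ganglion level was 33.2, 26.8 and 28.8 CPM in TN1 to TN3 and 28.4 CPM in HC, a mean of 29.3 ± 2.73 (SD, n = 4 areas). A UMI of Hcn3 was present in 73.4%, 63.8%, 69.5% and 61.5% of ganglion spots in the same order, and single spots held up to 7. In the peripheral myelin region the share was 7.09% in TN1 and 8.91% in TN3, where the median spot was shallower (7979 and 12667 UMIs, against 36284 to 49116 in the 4 ganglia). Thinned to 2000 UMIs per spot in a single random draw, 3.95% to 5.99% of ganglion spots held a UMI. The thinned shares of peripheral myelin spots were 1.72% in TN1 and 1.28% in TN3. A repeat draw of the HC ganglion spots gave 6.68% in place of 3.95%. The next level was that of cluster 4, an unnamed cluster in which sensory neuron and peripheral myelin genes scored alike, with 25.3 ± 2.42 CPM (n = 4). The ranges of this cluster (22.7 to 27.7) and of the ganglion region overlapped. All other regions lay lower, and none reached 22.7 CPM in an area with 20 or more of its spots. The region named blood and bone had 13.7 ± 4.61 CPM (n = 4, with 10.4 in TN2), the central neuron region 12.6 ± 4.09 (n = 2) and the peripheral myelin region 8.38 ± 1.06 (n = 2). The central myelin region had 6.1 ± 3.34 CPM (n = 4), and its range of 1.75 to 9.34 overlapped that of the peripheral myelin region. Pklr, the pyruvate kinase gene that abuts Hcn3 in the rat annotation, had no UMI in the ganglion region of TN1 or HC, 4 in TN2 and 1 in TN3.

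Between regions, summed counts were compared with edgeR's quasi-likelihood test, with the capture area as a block and Benjamini-Hochberg adjustment over 11874 genes. Against the peripheral myelin region, the Hcn3 level of the ganglion was higher by 1.58 ± 0.297 (SE) on the log2 scale (95% interval 0.95 to 2.22, adjusted p = 0.000671). Here 48.3% of all genes tested passed the adjusted threshold of 0.05, and 23.7% of all genes tested were called higher in the ganglion, so a call by itself does not set a gene apart in these contrasts. Without TN1 2875 genes were called in place of 5734. Against the central myelin region, Hcn3 was higher by 1.95 ± 0.263 (1.39 to 2.52, adjusted p = 2.99e-05). In that contrast 55.1% of the genes tested passed, and 29.9% of those tested were called in this direction. Against the central neuron region, Hcn3 was higher by 1.09 ± 0.283 (0.48 to 1.7, adjusted p = 0.00913), where 33.0% of the genes tested were called and 16.9% of those tested in this direction. Without TN1 2446 genes were called in place of 3920, the last difference was 0.54 and its adjusted p was 0.352, with TN2 then the only area holding brainstem. In this bulk measurement of spots, fewer neurons per spot and less Hcn3 RNA per neuron cannot be told apart. Per 1000 UMIs of 7 general neuron genes, Hcn3 gave 2.19, 1.88 and 2.1 UMIs in the ganglia of TN1 to TN3, 1.98 in that of HC, and 1.46 and 2.34 in the central neuron region of TN1 and TN2. On that scale the brainstem of TN2 lay above and that of TN1 below all 4 ganglia. The peripheral myelin region gave 3.81 in TN1 and 3.11 in TN3, above every ganglion and so in the other direction than the CPM, and the central myelin region gave 2.39, 2.43, 1.01 and 2.69 in TN1, TN2, TN3 and HC, above the ganglion of the same area in all but TN3. The counts behind these myelin values were 2 to 41 UMIs of Hcn3. Cluster 4 gave 2.52, 2.39, 2.6 and 2.31 in TN1, TN2, TN3 and HC, and the blood and bone region 2.49, 3.41, 3.69 and 3.2. Both lay above the ganglion of the same area in each area. In TN2 and TN3, cluster 6 gave 2.52 and 3.92, the connective tissue region 2.8 and 2.41, and the astrocyte region 1.83 and 4.

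Hcn4 was captured in the ganglion and, at a far higher level, in 1 of the 2 brainstem pieces. In the ganglion region it stood at 12.9, 13.3 and 7.88 CPM in TN1 to TN3 and 10.6 CPM in HC (mean 11.2 ± 2.49, n = 4), with a UMI in 37.2%, 40.9%, 25.6% and 32.0% of spots. Cluster 4 was next among regions found in all areas (7.53 ± 1.92), and its range of 5.33 to 9.23 overlapped that of the ganglion. The peripheral myelin region had 1.71 CPM in TN1 and 2.55 in TN3, and the central myelin region 3.74, 5.37, 0.873 and 0.971 in TN1, TN2, TN3 and HC. Both myelin regions lay below every ganglion value. The ganglion exceeded the peripheral myelin region by 1.76 ± 0.692 on the log2 scale (0.27 to 3.25, adjusted p = 0.0497), a call that was lost when TN1, TN3 or HC was left out (adjusted p = 0.0677, 0.134 and 0.062). It exceeded the central myelin region by 2.25 ± 0.609 (0.94 to 3.56, adjusted p = 0.00646). Without HC that difference was 1.69, with an adjusted p of 0.0803. Per 1000 UMIs of the general neuron genes the order was not the same: the ganglia gave 0.848, 0.933, 0.575 and 0.737 in TN1, TN2, TN3 and HC, the peripheral myelin region 0.714 in TN1 and 1.04 in TN3, and the central myelin region 0.956, 2.43, 0.506 and 0.327.

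The central neuron region gave 9.35 CPM of Hcn4 in TN1 and 73 CPM in TN2, a ratio of 7.8. The counts behind these levels were 53 UMIs in 425 spots and 226 UMIs in 129 spots. Of the TN1 spots 376 had none, 45 had 1 and 4 had 2. Of the TN2 spots 37 had none, 28 had 1, 43 had 2 or 3 and 21 had 4 or more, up to 7 in a single spot. Hcn4 was therefore spread over most of the TN2 piece: 71.3% of its spots held a UMI (95% exact binomial interval 62.7 to 78.9), and the tenth of spots with the most held 30.1% of the UMIs. The same share in TN1 was 11.5% (8.65 to 15). Depth differed between the 2 pieces, and its part in the difference was not tested. After thinning every spot to 2000 UMIs in a single random draw, the shares were 0.941% in TN1 and 14.7% in TN2. Hcn2, by contrast, was captured alike in both (5.65 and 5.17 CPM), and Hcn3 at 9.71 and 15.5 CPM.

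**Figure D2:**
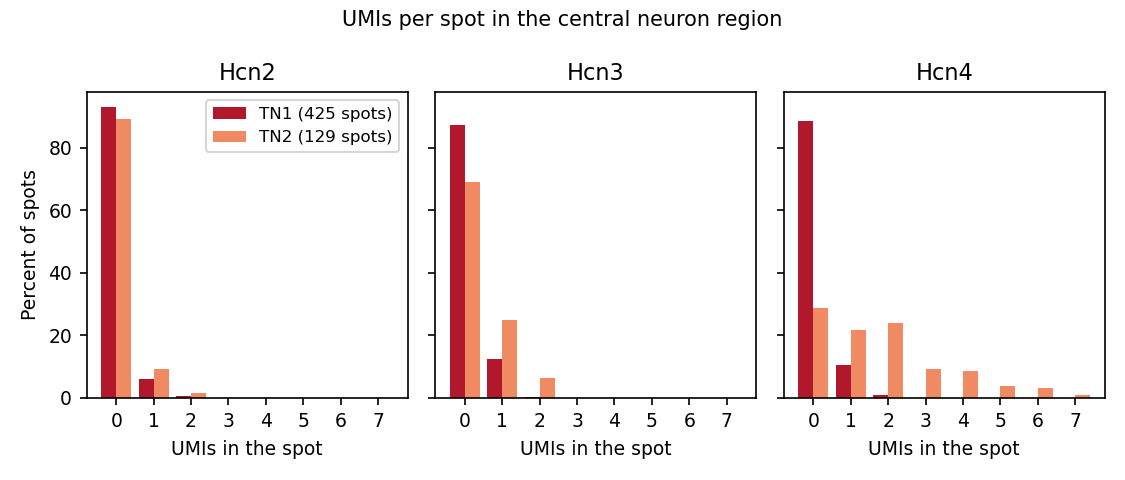
Percent of central neuron region spots (vertical axis) by the number of UMIs of each HCN gene in the spot (horizontal axis), for the 425 spots of TN1 and the 129 spots of TN2. Hcn4 reaches 7 UMIs per spot in TN2 and 2 in TN1, whereas Hcn2 and Hcn3 do not exceed 2 in either piece.

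The 2 brainstem pieces were compared by their marker genes. Summed over the 6 central neuron markers they were close (539 and 486 CPM), as they were for the 7 general neuron genes (6670 and 6620 CPM). Of the single markers, Gad1, a GABA-synthesizing enzyme, was at 48.9 CPM in TN1 and 49.4 in TN2, and Slc17a6, the glutamate transporter of excitatory neurons, at 147 and 144. The other 4 differed more. Slc32a1, the vesicular transporter of GABA and glycine, was at 86.3 and 56.5 CPM, Slc6a5, the glycine transporter of glycinergic neurons, at 107 and 62.3, Gad2, another GABA-synthesizing enzyme, at 36.2 and 15.2, and Kcnc1, a channel of fast-spiking neurons, at 114 and 159. The 4 large-fibre genes summed to 3160 and 4810 CPM, and the 6 connective tissue genes to 354 and 1170. Gabra6, a GABA receptor subunit known from cerebellar granule cells and chosen after its values were seen, was at 0.882 CPM in TN1 and 82.3 in TN2. Gabrd (9.53 and 49.1 CPM) and Cbln1 (101 and 187), chosen in the same way, were also higher in TN2. With 1 piece of each kind the Hcn4 difference has no replicate, and the part of these genes and of connective tissue in it was not tested. Brainstem is a working name, and whether the TN2 piece also holds other brain tissue was not tested.

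The contrast of ganglion and brainstem for Hcn4 differed between the 2 pieces. Over both, the ganglion level was lower than that of the central neuron region by a log2 value of -1.34 ± 0.493 (-2.4 to -0.28, adjusted p = 0.0517), which did not pass. With TN1 left out it was -2.57 and passed (adjusted p = 0.000301). With TN2 left out it was 0.25 in the other direction, with an adjusted p of 0.727. By CPM, the order of ganglion and brainstem for Hcn4 thus rested on the piece used. Per 1000 UMIs of the general neuron genes it did not. On that scale the central neuron region gave 1.4 in TN1 and 11 in TN2, both above every ganglion (0.575 to 0.933).

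Hcn2, the cAMP-sensitive subunit studied most in pain, was the sparsest of the 3 in these data and was not concentrated in the ganglion. Its ganglion level was 2.13, 0.827 and 0.438 CPM in TN1 to TN3 and 1.31 CPM in HC, from 20, 13, 3 and 34 UMIs. No ganglion spot held more than 2. The central neuron region (5.65 and 5.17 CPM) lay above all of these values. The central myelin region had 11.8, 1.79 and 3.49 CPM in TN1 to TN3 and 3.3 CPM in HC, and overlapped the ganglion range through TN2. These levels rest on 19, 2, 4 and 17 UMIs in TN1, TN2, TN3 and HC. The region named blood and bone had 5.14 ± 3.64 CPM (n = 4, with 5.22 in TN2), so that these 3 regions could not be ordered beyond their spread. In the peripheral myelin region Hcn2 was close to absent at this depth, with 1 UMI in 409 spots of TN1 and 2 in 393 spots of TN3.

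Hcn2 was lower in the ganglion than in the central neuron region by a log2 value of -2.07 ± 0.481 (-3.1 to -1.03, adjusted p = 0.00458), and lower than in the central myelin region by -2.12 ± 0.43 (-3.04 to -1.19, adjusted p = 0.000901). In the 2 contrasts 16.1% and 25.2% of all genes tested were called in this direction. Its excess over the peripheral myelin region, 1.61 ± 0.896, did not pass (-0.32 to 3.54, adjusted p = 0.154). Hcn2 and Hcn3 therefore differed from the brainstem in opposite directions, both called when all areas were used. Without TN2 the Hcn2 difference was -1.46 and no longer passed (adjusted p = 0.0723). Within the central myelin region, neuron genes were present at a low level: the 7 general neuron genes served as a base, and per 1000 of their UMIs Hcn2 gave 3.03, 0.808 and 2.02 in TN1 to TN3 and 1.11 in HC, against 0.0319 to 0.14 in the ganglion. The counts behind these central myelin values were 2 to 19 UMIs of Hcn2. On the same scale the central neuron region gave 0.847 in TN1 and 0.78 in TN2.

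The comparison of TN with HC asks whether compression of the root changed the channel genes in the ganglion. Neither Hcn2, Hcn3 nor Hcn4 passed the test there. None of 12822 genes did (0%), although 1190 had an unadjusted p under 0.05 and DESeq2 called 118 genes. The count depended on the area used, with 1135 genes called without TN1 and 29 without TN2, but the members were not among them in either case (adjusted p of 0.459 to 0.998). The Hcn3 values of the 3 TN areas lay on both sides of HC, with a TN mean of 29.6 ± 3.26 CPM (SD, n = 3) against 28.4 in HC. The log2 difference was -0.01 ± 0.221 (SE), and its 95% interval of -0.54 to 0.53 leaves room for a change of that size in either direction. Hcn4 likewise had TN1 and TN2 above and TN3 below HC (11.3 ± 3.01 against 10.6 CPM), with a difference of 0.04 ± 0.362 (-0.84 to 0.92). The Hcn2 values of TN2 and TN3 were below and that of TN1 above HC (1.13 ± 0.885 against 1.31 CPM). With 3 to 20 UMIs in the TN areas and 34 in HC, its difference of -0.26 ± 0.844 had an interval of -2.31 to 1.78, and without TN1 it was -1.02. The adjusted p-values were 0.992, 0.98 and 0.932 for Hcn3, Hcn4 and Hcn2. The 7 general neuron genes summed to 15200, 14200 and 13700 CPM in TN and 14400 in HC, on both sides of HC. Other marker lists of the same spots differed: the 4 large-fibre genes summed to 4010, 2710 and 3740 CPM in TN and 6210 in HC, the 7 nociceptor genes to 2120, 1400 and 1900 and 2290, the 7 macrophage genes to 274, 651 and 447 and 157, and the 6 connective tissue genes to 1080, 3340 and 2530 and 1080. Their part in the comparison was not tested.

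**Figure D3:**
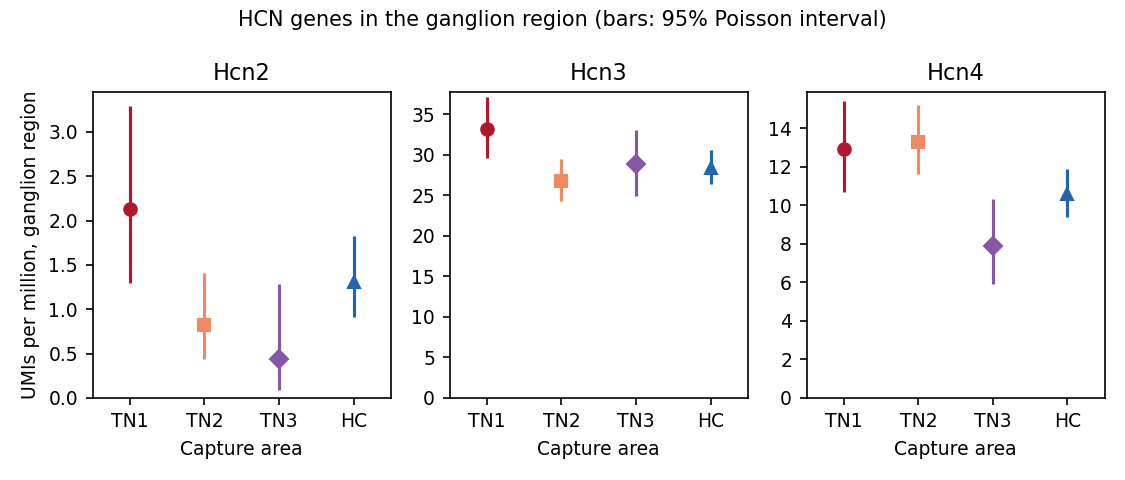
Level (CPM) of the 3 HCN genes in the ganglion region of each capture area; bars are 95% Poisson intervals of the count. The HC value lies within the range of the TN values for each gene.

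The scaffold and accessory genes best known to bind these channels were followed with them. Pex5l, which encodes TRIP8b, an auxiliary subunit that controls trafficking and cAMP response of HCN channels, was at 6.38, 6.23 and 6.42 CPM in the ganglion of TN1, TN2 and TN3 and at 8.18 in HC. All 3 TN values lay below HC, but the log2 difference of -0.43 ± 0.304 did not pass (adjusted p = 0.648). Kctd3, an accessory protein that acts on HCN3, was at 38, 31.3 and 37.2 CPM in TN and 40.8 in HC (-0.27 ± 0.21, adjusted p = 0.68). Again all TN values were the lower ones. Of the genes on the lists of binding partners, cAMP enzymes, receptors and related currents, none passed between TN and HC. In the central myelin region, Hcn2 and Hcn3 were tested with the same outcome: 0.79 ± 1.04 (-1.63 to 3.22) and -0.54 ± 0.761 (-2.32 to 1.23), both with an adjusted p of 1, where 0% of 9035 genes were called, 288 had an unadjusted p under 0.05 and DESeq2 called 4 (232 genes were called by edgeR without TN1). Hcn4 did not reach the count filter in that region. The peripheral myelin region had too few HC spots to be compared.

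Within the TN ganglia, spots of an injury-gene-high cluster could be set against the other ganglion spots of the same area, a comparison that does not use HC. This cluster was chosen by its score for 8 nerve injury genes, among them Atf3, Gal and Sprr1a. It comprised 53, 327 and 70 spots in TN1, TN2 and TN3 and none in HC. The 8 genes summed to 2500, 3120 and 2580 CPM in it and to 1170, 1440 and 1050 CPM in the other ganglion spots. Hcn3 and Hcn4 were not called, while 25.2% of 10000 genes were (2521, and 1589 without TN2). Hcn3 was at 33.4 CPM in the injury-gene-high spots and 33.1 in the others of TN1, at 27.2 and 24.6 in TN2, and at 29.1 and 28.6 in TN3. It was higher in the injury-gene-high spots in 3 of 3 areas by small amounts, a log2 difference of 0.07 ± 0.125 (-0.19 to 0.33, adjusted p = 0.738). Hcn4 was at 13.9 and 12.5 CPM in TN1, 13 and 15 in TN2, and 6.67 and 8.6 in TN3. The direction was not the same in all areas, and the difference was -0.1 ± 0.202 (-0.52 to 0.32, adjusted p = 0.77). Hcn2 had too few UMIs for the test, with 4, 10 and 0 in the injury-gene-high spots and 16, 3 and 3 in the others. Its CPM was lower in the injury-gene-high spots of each area (1.59 and 2.33, 0.751 and 1.25, 0 and 0.697).

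Of the genes on the lists of binding partners, cAMP pathway and neighbouring currents, 27 were tested in the same spots and 7 were called (25.9%), a share close to the 25.2% over all genes tested. The 7 are therefore given as values of single genes, and nothing is read from their number. Kcnq5, a subunit of the M-current that opposes firing near threshold, fell by 1.23 on the log2 scale (SE 0.171, adjusted p = 2.27e-05), from 25.9, 40.8 and 24.2 CPM in the other spots of TN1, TN2 and TN3 to 14.3, 13.5 and 12.6 in the injury-gene-high spots. Of 6 subunits of protein kinase A 3 were tested and 2 fell: Prkaca, the catalytic subunit, by 0.38 (SE 0.0982, adjusted p = 0.00642) and Prkar2b, a regulatory subunit of neurons, by 0.36 (SE 0.0921, adjusted p = 0.00634). Ptgir, the prostacyclin receptor, which raises cAMP, fell by 0.37 (SE 0.11, adjusted p = 0.0171). In each of the 3 areas these 4 genes were lower in the injury-gene-high spots. Rises were seen for Adcy6, an adenylyl cyclase (0.67 ± 0.168, adjusted p = 0.00559), Flna, filamin A, an actin crosslinker that can bind HCN channels (0.52 ± 0.0864, adjusted p = 0.000156), and Gnai3, an inhibitory G protein (0.28 ± 0.0878, adjusted p = 0.0233). Adcy6, Flna and Gnai3 were also higher in the peripheral myelin region than in the ganglion (log2 -1.65, -1.03 and -0.49 for ganglion against peripheral myelin). The 7 peripheral myelin genes summed to 14600, 16600 and 18000 CPM in the injury-gene-high spots and to 9330, 8300 and 11600 in the others. The 6 connective tissue genes (1350, 3580 and 3370 against 986, 2060 and 2030 CPM) and the 7 macrophage genes (372, 707 and 594 against 238, 342 and 361) were also higher in the injury-gene-high spots of each area. The 7 nociceptor genes moved the other way (1400, 1150 and 1690 against 2380, 2810 and 2030 CPM), as did the 4 large-fibre genes (2900, 2420 and 2440 against 4410, 4300 and 4510). The part of these marker genes in the changes was not tested. By list, and beside the 25.2% of all genes, 1 of 7 binding partners, 1 of 6 cyclases and 1 of 4 G proteins rose, and 1 of 3 receptors and 1 of 2 partner currents fell, whereas none of 2 phosphodiesterases passed.

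**Figure D4:**
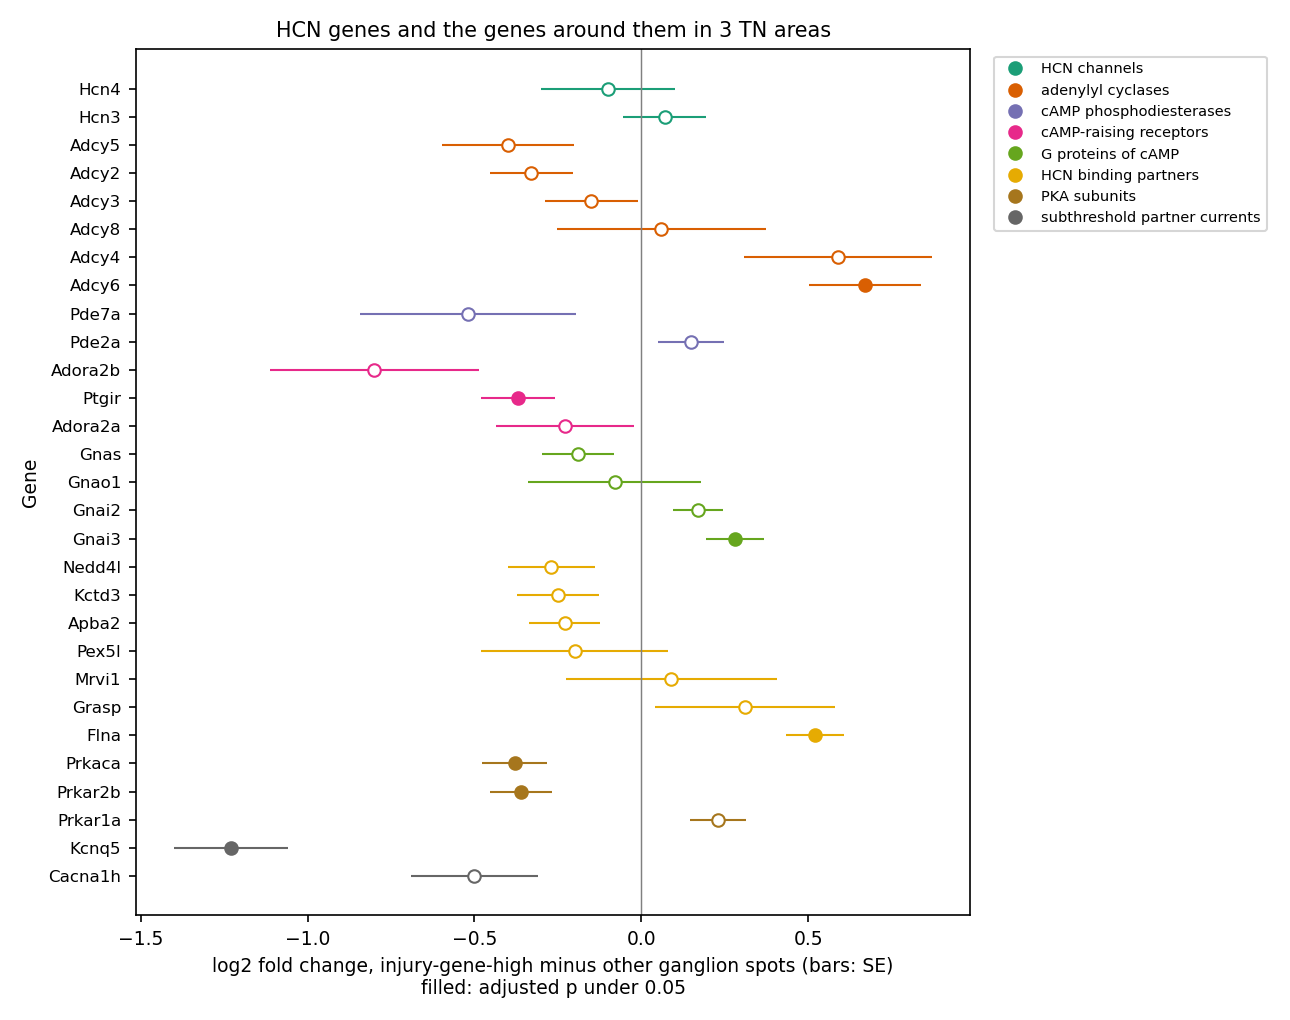
Log2 fold change of the HCN genes and of the tested genes of each list between injury-gene-high and other ganglion spots, with 3 TN areas as blocks; bars are standard errors and filled points have an adjusted p under 0.05. Hcn3 (0.07) and Hcn4 (-0.1) lie near 0, Kcnq5 is the lowest point (-1.23) and Adcy6 the highest (0.67).

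To see whether the channels followed the kind of neuron, ganglion spots of each area were ranked by the ratio of large-fibre genes (such as Nefh and Pvalb) to nociceptor genes (such as Scn10a and Trpv1), and cut into 3 parts of equal size, of which the outer ones were compared. These sides are ranges of mixed spots, not cell types. Hcn3 was at 33.9 CPM on the nociceptor side and 28.5 on the large-fibre side of TN1, 28.2 and 24.8 in TN2, 33.8 and 24.5 in TN3, and 30 and 26.5 in HC. It was higher on the nociceptor side in 4 of 4 areas, although the middle part of TN1 (37.7) exceeded both outer ones. The log2 difference of the large-fibre against the nociceptor side was -0.21 ± 0.0932 (-0.41 to -0.01), with an unadjusted p of 0.0433 and an adjusted p of 0.212, and so did not pass where 9.22% of 10298 genes did (949, with 490 without TN1 and 481 without HC). Hcn4 showed no common direction: 12.1 and 14.7 CPM in TN1, 13.6 and 11.4 in TN2, 10.3 and 5.41 in TN3, and 11.9 and 11.1 in HC (-0.11 ± 0.158, -0.45 to 0.23, adjusted p = 0.77). Hcn2 was not tested. Its UMIs were 8 and 7, 5 and 5, 1 and 2, and 11 and 17 on the nociceptor and large-fibre sides of TN1, TN2, TN3 and HC. The general neuron genes were higher on the large-fibre side of each area (14300 to 15700 CPM, against 13200 to 14200 on the nociceptor side).

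**Figure D5:**
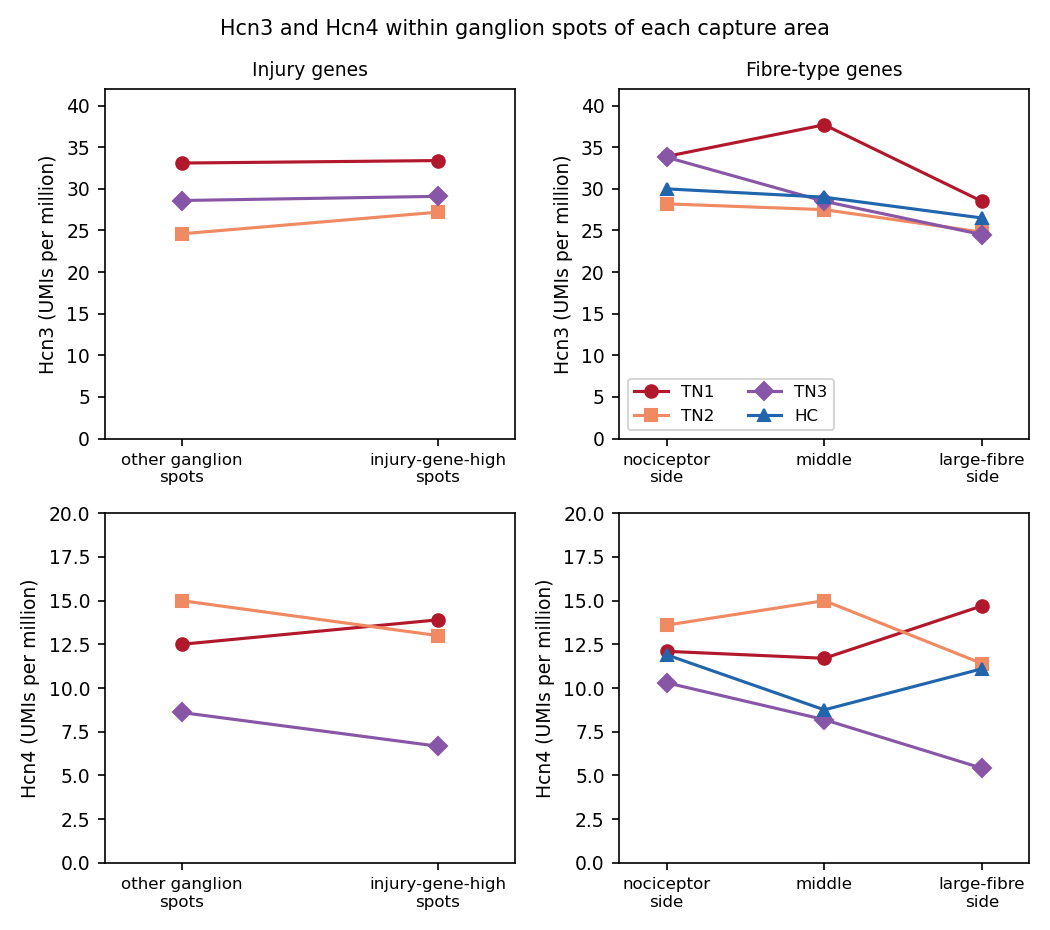
Level (CPM) of Hcn3 (top) and Hcn4 (bottom) within the ganglion spots of each capture area, left for injury-gene-high against other spots (TN areas) and right for spots ranked by fibre-type genes (all areas). Hcn3 is lower on the large-fibre than on the nociceptor side of each area, and the lines of Hcn4 cross.

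Of the list genes, 28 were tested along this axis and 9 were called (32.1%, beside 9.22% of all genes tested), each lower on the large-fibre side. The share of all genes called lower on the large-fibre side is not given, so nothing is read from this common direction. The lists were not tested against other genes or against the channels, and the genes named here were chosen after their values were seen. Ptgir had a log2 difference of -1.11 ± 0.119 (adjusted p = 6.79e-05), Prkar2b of -0.94 ± 0.0806 (adjusted p = 1.48e-05), the M-current gene Kcnq5 of -1.06 ± 0.119 (adjusted p = 9.37e-05) and the binding partner Nedd4l, a ubiquitin ligase of channels, of -0.52 ± 0.0789 (adjusted p = 0.000852). In the list of G proteins 3 of 4 tested genes were lower (Gnas, Gnai2 and Gnai3), and none of 6 cyclases passed. The other PKA subunits, Prkaca (0.17 ± 0.0806, adjusted p = 0.227) and Prkar1a (0.02 ± 0.0609, adjusted p = 0.91), did not pass. Pex5l (0.33 ± 0.177, adjusted p = 0.308) and Kctd3 (0.12 ± 0.0924, adjusted p = 0.529) did not pass.

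The lists were also followed between regions. Of 38 list genes tested, 16 were called between ganglion and central neuron region (42.1%, beside 33.0% of all genes tested), 23 against the peripheral myelin region (60.5%, beside 48.3%) and 23 against the central myelin region (60.5%, beside 55.1%). These shares were not tested against those of all genes. Kctd3 was lower in the ganglion than in the central neuron region (log2 -0.77 ± 0.14, adjusted p = 0.000776) and than in the central myelin region (-0.38 ± 0.117, adjusted p = 0.0135). Pex5l did not pass against any of the 3 regions, and its level was 6.8 ± 0.919 CPM in the ganglion (n = 4), 9.16 ± 3.45 in the central myelin region (n = 4), 8.63 ± 3.52 in the central neuron region (n = 2) and 5.82 ± 1.86 in the peripheral myelin region (n = 2). Of the 11 binding partners tested, 2 were higher and 1 lower in the ganglion than in the central neuron region, where 33.0% of all genes were called. Flna (1.31 ± 0.202) and Nedd4l (1.14 ± 0.237) were the higher ones. Against the peripheral myelin region 2 were higher and 4 lower (48.3% of all genes called), with Apba2, an adaptor of synaptic proteins, at 2.21 ± 0.211, and Magi2, a scaffold, at -2.85 ± 0.616 from few UMIs. Against the central myelin region 4 were higher and 3 lower (55.1% of all genes called), among them Cav3 (2.32 ± 0.925, adjusted p = 0.0471), Lrmp (-1.94 ± 0.486) and Kcne2 (-1.7 ± 0.336). Cav3 and Lrmp also rest on few UMIs, with 0 to 2 and 1 to 9 in the central myelin region of an area. The counts of partners lie near these shares of all genes.

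Of 7 adenylyl cyclases tested, which make cAMP, 3 were called against the central neuron region, 4 against the central myelin region and 3 against the peripheral myelin region, where 33.0%, 55.1% and 48.3% of all genes were. Adcy8, a calcium-activated cyclase, was lower in the ganglion than in the central neuron region (-2.28 ± 0.235, adjusted p = 6.81e-06), as were Adcy2 (-1.13 ± 0.163) and Adcy5 (-0.74 ± 0.191), and none of the 7 was called higher. Against the central myelin region Adcy3 (1.45 ± 0.232) and Adcy2 (0.43 ± 0.153, adjusted p = 0.0284) were higher, and Adcy5 (-1.46 ± 0.153) and Adcy8 (-0.93 ± 0.237, adjusted p = 0.00447) lower. Against the peripheral myelin region Adcy2 (1.59 ± 0.204) and Adcy3 (1.48 ± 0.27) were higher and Adcy6 was lower. The medians over the 7 tested cyclases were -0.72, 0 and -0.41 in the contrasts with central neuron, central myelin and peripheral myelin, beside 0.01, 0.05 and -0.04 over all genes tested.

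Of the 38 list genes, 5 were called higher in the ganglion than in each of the 3 regions (Prkar2b, Ptgir, Pde2a, Nedd4l and Cacna1h), and none was called lower in all 3. In the single contrasts 16.9%, 29.9% and 23.7% of all genes were called higher, against central neuron, central myelin and peripheral myelin. The share of all genes called in all 3 was not counted, so nothing is read from the number of list genes. Prkar2b stood at 79.8, 72.1, 75.7 and 87.9 CPM in the ganglion of TN1, TN2, TN3 and HC, at 22.6 and 17.8 in the central neuron region of TN1 and TN2, and at 20 and 15.5 in the peripheral myelin region of TN1 and TN3. Its log2 differences were 1.69 ± 0.155, 2.07 ± 0.131 and 2.00 ± 0.158 against central neuron, central myelin and peripheral myelin. Those of Ptgir were 3.41 ± 0.237, 2.65 ± 0.185 and 2.19 ± 0.213, and its 37.1 to 53.2 CPM in the 4 ganglia compare with 4.41 and 3.23 in the brainstem. For Pde2a, a cGMP-stimulated phosphodiesterase, they were 0.98 ± 0.171, 1.8 ± 0.151 and 1.83 ± 0.184. Gnas, the stimulatory G protein, was higher in the ganglion than in either myelin region (2.11 ± 0.251 and 2.57 ± 0.317) and lower than in the brainstem (-1.08 ± 0.264, adjusted p = 0.00625). Other members were lower in the ganglion: Pde4b, another phosphodiesterase, than in the central neuron (-2.09 ± 0.673) and central myelin regions (-2.57 ± 0.498), and Gnai1, an inhibitory G protein, than in the central (-3.07 ± 0.499) and peripheral myelin regions (-2.49 ± 0.626), both from few UMIs.

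Of the currents that work in the same voltage range as HCN channels, 3 were tested between regions, and 2 were called between ganglion and brainstem, where 33.0% of all genes were. Cacna1h, a T-type calcium channel of sensory neurons, was higher in the ganglion than in the central neuron region (1.09 ± 0.334, adjusted p = 0.0217), and Cacna1g, the T-type channel of many central neurons, was lower (-2.6 ± 0.465, adjusted p = 0.000701). Cacna1g had 0.694 to 1.31 CPM in the 4 ganglia and 5.47 and 6.13 in the 2 brainstem pieces, without overlap. Kcnq5 did not pass in that contrast (0.5 ± 0.307, adjusted p = 0.234), and its 18.7 CPM in the brainstem of TN1 lay within the range of the ganglia (17.7 to 31.9), whereas TN2 gave 7.75. It was higher in the ganglion than in the peripheral (2.36 ± 0.371) and central myelin regions (2.22 ± 0.309). None of the cyclic nucleotide-gated relatives of the HCN genes passed the count filter in the contrasts between regions.

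Over the 26 sums of a region in an area, the genes whose log2 level was most like that of each member were named among 8496 genes with at least 1000 UMIs. The sums share areas, depth and mixtures of cells, so these correlations only describe the pattern. Hcn3 was followed closely by Gng3, Slc2a6, Them6, Map1lc3a and Syngr3 (Pearson r = 0.96 each). Gng3, a neuronal G protein subunit, was at 1090 to 1380 CPM in the ganglia, 469 and 486 in the brainstem and 208 and 222 in the peripheral myelin region. Hcn4 was most like Me3, a mitochondrial malic enzyme (r = 0.9), followed by Rap1gap2 and Adarb1 (0.86) and Atp5mg and Mtus2 (0.85). The 26 sums include both brainstem pieces. All 5 genes were higher in that of TN2, by less than Hcn4: Me3 was at 47.5 CPM in TN1 and 170 in TN2, Rap1gap2 at 61.8 and 171, Adarb1, an RNA editing enzyme, at 217 and 654, Atp5mg at 1050 and 1600, and Mtus2 at 20.3 and 31.3. The likeness for Hcn2 was lower, with Spock3 (0.81), Tmcc2, Car2 and S1pr1 (0.79) and the HCN accessory gene Kctd3 (0.77). Hcn2 had only 0 to 34 UMIs in a sum, and 5 CPM were added before taking logarithms. Its lower likeness is therefore not read as a difference in pattern. Spock3 was at 6.62 to 16.9 CPM in the ganglia and 32.4 to 76 in the central myelin region, highest in TN1, where Hcn2 also had its highest value.

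Spots that held 2 of the channels were counted in the ganglion. Hcn3 and Hcn4 were both present in 57 of 199 spots in TN1, 94 of 367 in TN2, 35 of 164 in TN3 and 144 of 659 in HC. Hcn4 was found in 39%, 40.2%, 30.7% and 35.6% of spots with Hcn3 and in 32.1%, 42.1%, 14% and 26.4% of spots without it. This share was higher with Hcn3 than without it in TN1, TN3 and HC, and lower in TN2. Spots with both were deeper than spots with neither in each area (median 44151 to 54350 UMIs against 27271 to 35034), and the part of depth in the joint presence was not tested. Hcn2 and Hcn4 shared 10, 4, 1 and 8 ganglion spots.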

How the data were processed

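Spatial RNA was measured on 4 capture areas (TN1 to TN3 and HC). The deposited values are raw UMI counts of each gene in each spot under tissue, made by the authors with Space Ranger (1.2.0 in the file header). The build, the annotation and any equalizing of depth between areas were not stated. The area was read from the number after each barcode, following the order in the series description.

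Spots were normalized with SCTransform (Seurat 5.3.0, sctransform 0.4.2) over the 16088 genes found in 10 or more spots. Of the 3000 most variable genes, 10 were members or described list genes and were held out, 30 principal components were taken, and K-means (50 starts) gave 10 clusters. A cluster took the name of the marker list with the highest mean of centred log2(CPM + 5), and stayed unnamed where the next list was within 0.25. No doublet caller was applied.

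UMIs were summed per region and area where an area had 20 or more spots, and compared by the quasi-likelihood test of edgeR 4.0.16 in R 4.3.3, after filterByExpr and TMM scaling, with Benjamini-Hochberg adjustment at 0.05. TN against HC left 2 residual degrees of freedom and assumes that HC varies like TN. Other contrasts had the capture area as a block. TN areas are separate animals by the series description. Standard errors were taken from the fold change and F statistic. Intervals for counts and shares are exact (95%) and cover counting error only. The fits were tested on simulated data. Genes were named by rule: members, Pex5l and Kctd3, list genes called between TN and HC or with injury genes, up to 3 per list called between regions, and the 5 most alike per member. Of the list genes, Cnga2, Htr7, Pde11a and Tamalin were not matched by symbol. Members, lists, rules and tests were chosen with earlier results of these data known. Neighbouring genes were taken from RefSeq GRCr8. The images were not used.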

Additional observations from a re-analysis of the deposited data

How the results depend on the processing

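No paired analysis was possible because HC is 1 area that shares no number with a TN area, and contrasts within areas already had the area as a block. Between TN and HC in the ganglion, where none of the members was called, the sign of the log2 difference changed for Hcn3 with spots assigned from marker lists (0.11), for Hcn4 with the sensory neuron cluster within the naming margin joined (0) and for Hcn2 without the injury-gene-high cluster (0.16), the latter settings being added after the data were seen. Leaving out a TN area gave -0.11 to 0.08 for Hcn3, -0.06 to 0.26 for Hcn4 and -1.02 to 0.09 for Hcn2. Genes called numbered 118 with DESeq2, 21 without the count filter, 6 without the injury-gene-high cluster and 0 to 1135 with a TN area left out (1135 without TN1, 29 without TN2). In the central myelin region they numbered 4 with DESeq2, 3 without the filter and 0 to 232 with an area left out (232 without TN1). Between ganglion and central myelin, Hcn4 fell short with marker-assigned spots (1.41, adjusted p = 0.0918). Against peripheral myelin it fell short with size factors (1.73, adjusted p = 0.0531) and marker-assigned spots (1.19, adjusted p = 0.0599), and 2875 to 6057 genes were called with an area left out. With an area left out, Hcn4 ranged from 1.69 to 2.62 against central myelin and from 1.44 to 2.22 against peripheral myelin, and against the central neuron region the ranges were -2.57 to 0.25 for Hcn4, 0.54 to 1.59 for Hcn3 and -2.95 to -1.46 for Hcn2. Against the central neuron region Hcn4 passed with size factors (-1.35, adjusted p = 0.0498), without the filter (-1.25, adjusted p = 1.11e-05) and without HC (-1.42, adjusted p = 0.0435), Hcn3 fell short with marker-assigned spots (0.93, adjusted p = 0.0709), and 2446 to 3806 genes were called with an area left out. With injury genes 1164 genes were called by DESeq2 and 1589 to 2993 with an area left out, and between the nociceptor and large-fibre sides 509 by DESeq2 and 481 to 1119 with an area left out. The cause of these shifts was not tested. Without mitochondrial, ribosomal protein and hemoglobin genes the TN mean CPM was 33.5 for Hcn3 in the ganglion, 17 for Hcn3 and 7.31 for Hcn2 in the central neuron region. Thinned to 2000 UMIs, the share of ganglion spots in TN1, TN2, TN3 and HC was 4.52%, 5.99%, 5.49% and 3.95% for Hcn3, 3.02%, 1.91%, 2.44% and 1.97% for Hcn4, and 0.503%, 0%, 0% and 0.303% for Hcn2. Each thinned share comes from a single random draw. A repeat draw of the same HC spots gave 6.68% for Hcn3, 2.58% for Hcn4 and 0% for Hcn2. The order of areas in these shares is therefore not read. The other 208 recomputed values kept their direction and side of the threshold or moved by less than their spread. Numbers of genes called were counted among them where they stayed within a set ratio of the main number. Low UMI counts limit Hcn2 most, and TN against HC rests on 1 control area.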
